A study of Drosophila melanogaster with 2 samples.

Results

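The genes described here are 10 Polycomb group genes of Drosophila melanogaster, out of 13945 protein-coding genes in the annotation: ph-p, ph-d, Pc, Psc, Su(z)2, Scm, Sce, E(z), Su(z)12 and esc. They were listed by name after measured values of these data were known, among them the high rank of a region at ph-p. Their regions were selected on position: the summit, the base where a region's signal is highest, lay in the gene body or up to 2000 bp outside it. Ranks, signals and counts at these genes are therefore a description and carry no test.

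Polycomb group proteins keep developmental genes, the Hox genes among them, silent through cell divisions. Polycomb repressive complex 1 holds Polycomb, Polyhomeotic, a RING-finger protein (Psc or Su(z)2) and the ubiquitin ligase Sce, while complex 2 holds the histone methyltransferase E(z) with Su(z)12 and Esc. In flies both complexes are recruited by Polycomb response elements, and some Polycomb group genes are themselves targets of Polycomb proteins, as was described for ph and for Psc.

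The data are chromatin immunoprecipitation followed by sequencing (ChIP-seq) for Sima, the fly ortholog of the alpha subunit of the hypoxia-inducible factor, in whole embryos. The line, sima-RB-GFP, carries a transgene for the RB isoform fused at its C terminus to GFP (eGFP in the sample descriptions), and an antibody against GFP was used. Which promoter drives the transgene, and whether the line keeps its own sima gene, is not stated in the labels. The embryos were 0 to 24 h old and of both sexes, so each value averages over all cell types and all stages of embryogenesis. There were 2 biological replicates of this 1 group, and control samples were not analysed here.

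The deposited values are lists of regions on the dm6 build, each region with a signal. Relaxed lists of 30000 regions existed for replicate 1, for replicate 2 and for the pooled reads of both. A further list of 1272 regions had passed a threshold on the irreproducible discovery rate (IDR), and it equalled the 1272 strongest regions of the pooled list. Signals are given as a ratio, the signal over the median of its list, and ranks count from the strongest region of a list. Per the names of the lists, the relaxed ones reach into background, so a region with a ratio near 1 is an ordinary entry of that list. The replicate 1 list held 14 regions of the mitochondrial genome and the replicate 2 list 0, and their part in the ranks was not tested. The depth behind each value is unknown, since no read numbers came with the lists.

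IDR regions lay at 3 of the 10 genes, with 3 at ph-p, 2 at Pc and 1 at Psc. Over all protein-coding genes, 13.0% had an IDR region in the same window. The other 7 genes had regions of the pooled list only, and every one of the 10 had at least 1 of these, as did 80.4% of all protein-coding genes. The 3 genes with an IDR region had the longest gene bodies of the list, with 14998 bp at Psc, 12162 bp at ph-p and 11883 bp at Pc. Su(z)2, with 11411 bp and no IDR region, was the only other member of 10000 bp or more, a length at which 25.9% of protein-coding genes had an IDR region. None of the 6 shorter members had one.

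**Figure D1:**
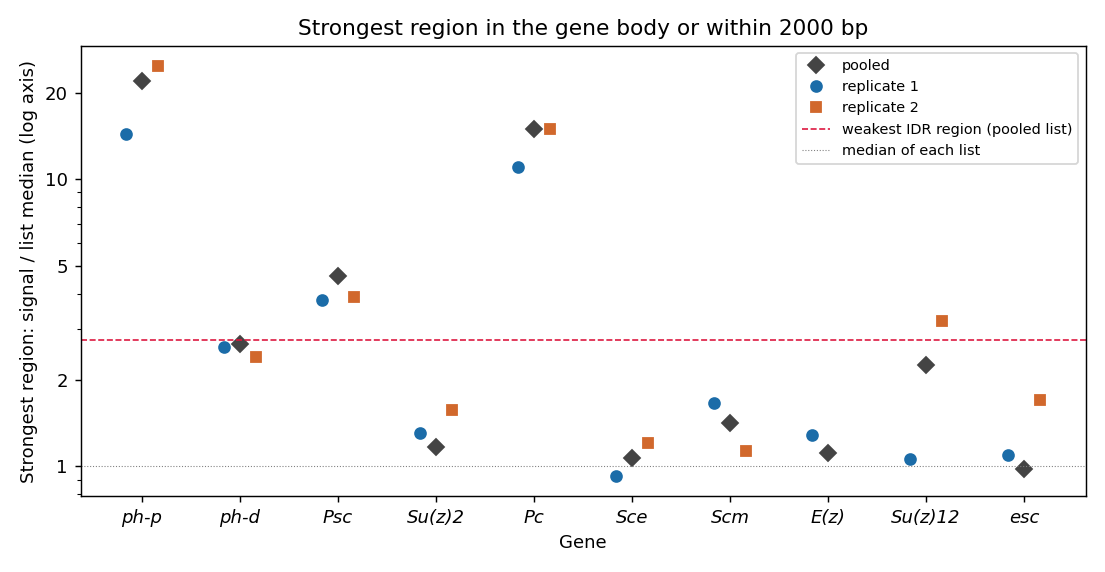
Ratio of the strongest region at each gene to the median signal of its list (log axis), for the pooled list and each replicate, with the ratio of the weakest IDR region (2.76) as a dashed line and the list median as a dotted line. The dashed line is scaled to the pooled median and marks no threshold for the replicate points. ph-p, Pc and Psc lie above the dashed line in all 3 lists, and E(z) has no replicate 2 point because that list held no region there. The Pc points show the region at the start of CG11309, outside the Pc body.

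The ph locus on X holds the tandem neighbours ph-p and ph-d, which both encode Polyhomeotic proteins, the subunits of complex 1 that carry a SAM domain. ph-p (FBgn0004861, X:2126210-2138371, minus strand) held the strongest region of the list. It spanned X:2137207-2137518 and was 312 bp wide, with its summit in an intron, 484 bp upstream of the start site at 2136855 and downstream of the first start site at 2138371. Its ratio was 14.4 in replicate 1, where it ranked 23, and 24.7 in replicate 2, where it ranked 9, with a mean of 19.5 ± 7.24 (SD, n = 2). In the pooled list it ranked 10, with a signal of 471 and a ratio of 22.0. The summits of both replicates lay within 14 bp of the pooled summit, and 20 protein-coding genes had a region of better rank in their window.

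The sequence of this strongest region is shown because it held the highest signal at any listed gene. The window covers 299 bases around the summit on dm6, read 5′ to 3′ on the strand of ph-p. The capitals mark matches on either strand to ACGTG or GCGTG (the core of the hypoxia response element, to which Sima binds with its partner Tango), GAGAG (bound by GAGA factor), GCCAT (the core bound by Pho) and ATCGAT (the core of the DNA replication-related element). None of these words contains another, and ACGTG also makes up most of the E-box CACGTG, found within 50 bp of 1.10% of all IDR summits.
ph-p region of rank 10, chrX:2137190-2137488, minus strand: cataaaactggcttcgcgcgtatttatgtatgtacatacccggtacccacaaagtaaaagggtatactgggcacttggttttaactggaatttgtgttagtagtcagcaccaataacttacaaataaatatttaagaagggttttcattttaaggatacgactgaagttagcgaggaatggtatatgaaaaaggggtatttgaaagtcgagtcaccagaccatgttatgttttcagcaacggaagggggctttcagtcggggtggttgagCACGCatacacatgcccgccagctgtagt
The window held 1 match, to GCGTG, read on the opposite strand. GCGTG was present in 28.9% of all IDR regions in windows of the same length, and ACGTG, absent here, in 23.4%. Neither core lay within 50 bp of the summit of any of the 6 IDR regions at the listed genes, while each was within 50 bp of 7.08% of all IDR summits. GAGAG was likewise at none of the 6 and at 9.04% of all, and the word TTAAAA was at 2 of the 6, both in ph-p, and at 31.3% of all. The G+C content within 50 bp of the summit had a median of 30.2% over the 6 and 33.7% over all IDR regions.

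ph-p had 2 further IDR regions. One of 143 bp at X:2137828-2137970 had its summit in the 5' UTR, 441 bp downstream of the start site at 2138371 and 591 bp from the strongest summit. It had ratios of 3.75 in replicate 1 (rank 389) and 9.42 in replicate 2 (rank 92), with a mean of 6.58 ± 4.01 (SD, n = 2), and ranked 135 in the pooled list with a ratio of 7.48. IDR regions with another IDR summit within 1000 bp made up 7.39% of the list, and this pair is among them.

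The third IDR region of ph-p, at X:2134151-2134546, lay in an intron 2273 bp downstream of the start site at 2136622. It ranked 539 in the pooled list with a ratio of 4.16. Its replicate 1 summit was 81 bp away with a ratio of 3.12, and the nearest replicate 2 summit was 103 bp away with a ratio of 3.85, which is just outside the 100 bp used for a match. A pooled region of rank 7982, at X:2134356-2134751, overlapped it. The same replicate summits lay 124 bp (replicate 1) and 102 bp (replicate 2) from the summit of that region, so both fell between the pooled summits. The region of rank 539 was the only one of the 6 IDR regions at these genes not matched in both replicates, and 93.2% of all IDR regions were matched. The summit window of 101 bases is shown because it carried the single GCCAT at the 6 summits, a word found within 50 bp of 17.6% of all IDR summits. The capitals mark the same words as above.
ph-p region of rank 539, chrX:2134299-2134399, minus strand: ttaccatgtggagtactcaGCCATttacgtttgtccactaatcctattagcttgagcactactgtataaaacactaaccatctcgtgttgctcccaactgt

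ph-d (FBgn0004860, X:2115727-2123286, minus strand) had 5 regions in the pooled list and no IDR region, against 10 pooled regions at ph-p. Its strongest, at X:2123833-2124228, lay between the genes, 745 bp upstream of the start site at 2123286. It had a ratio of 2.61 in replicate 1 (rank 973) and 1.84 in replicate 2 (rank 2683), with a mean of 2.23 ± 0.543 (SD, n = 2). With rank 1369 and a pooled signal of 56.9 it fell just outside the IDR list, whose weakest region had a signal of 59.0. The next, of rank 2211 at X:2122095-2122490, lay in an intron 501 bp upstream of the start site at 2121792, with ratios of 1.39 in replicate 1 and 2.41 in replicate 2, and it had no alignment to the ph-p window. A further one, of rank 5111, lay in the 3' UTR of csw.

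Set side by side, the strongest region had a signal of 471 at ph-p and 56.9 at ph-d in the pooled list, a log2 ratio of 3.05. In replicate 1 the signals were 211 at ph-p and 38.1 at ph-d (log2 ratio 2.47), and in replicate 2 they were 264 at ph-p and 25.8 at ph-d (3.36), with a mean log2 ratio of 2.91 ± 0.63 (SD, n = 2). The ph-d value came from a different region in each replicate, so this SD is not the spread of a single ph-d region. It was the region of pooled rank 1369 in replicate 1 and that of pooled rank 2211 in replicate 2. The value at ph-p was above that at ph-d in both replicates, and the difference was 5.53-fold in the replicate where it was smaller. The sum over all pooled regions was 894 at ph-p, over 3623 bp of regions, and 167 at ph-d, over 1980 bp, with a mean signal per region of 89.4 at ph-p and 33.4 at ph-d. These lengths are summed widths, and bases in overlapping regions, as at ph-p, count for each. The 2923 bp between both genes held no IDR region.

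**Figure D2:**
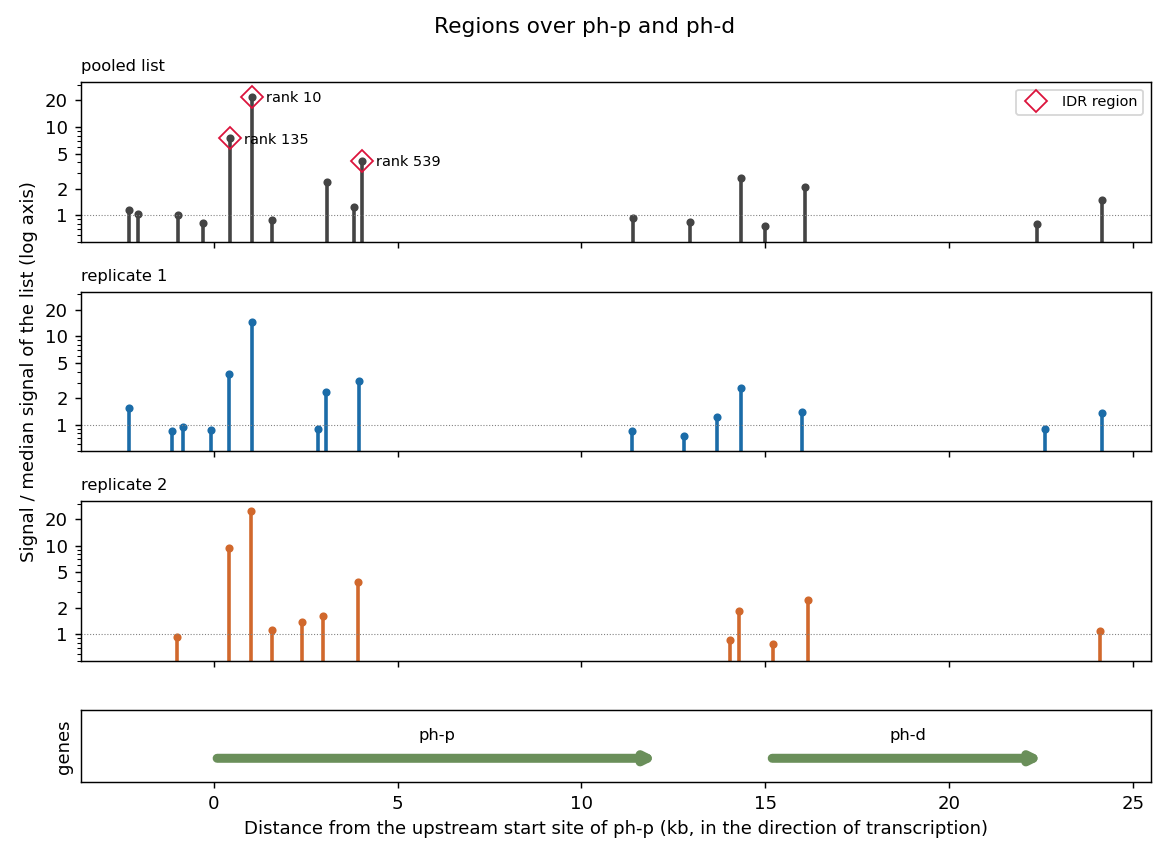
Regions over ph-p and ph-d in the pooled list and in each replicate, by distance of the summit from the first start site of ph-p (kb, in the direction of transcription), with height as the ratio to the list median (log axis). The IDR regions, marked by diamonds, lie in the first 5 kb of ph-p, and neither replicate has a summit over most of the gene bodies downstream.

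The genes are duplicates, and a read from sequence identical in both cannot be placed uniquely. Of the ph-p body, 4572 bp (37.6%) aligned to the ph-d body with 91.6% identity. Of all words of 30 bases in the gene body, 33.4% in ph-p and 33.7% in ph-d occurred more than once in the genome, counting either strand. A stretch of 7362 bp in ph-p (X:2126987-2134348) and one of 6231 bp in ph-d (X:2115990-2122220) held no summit in any of the pooled, replicate 1 and replicate 2 lists. These stretches made up 60.5% of the ph-p body and held 96.5% of its repeated words, and made up 82.4% of the ph-d body and held 100% of its repeated words. At Su(z)2 the longest such stretch made up 23.4% of the body and held 100% of its 42 repeated words. How reads with several matches were treated is not stated in the labels, and its part in the absence of regions was not tested. No word of 30 bases within the 3 IDR regions of ph-p, or within the regions of rank 1369 and 2211 at ph-d, occurred more than once.

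The strongest ph-p region was partly duplicated: 101 of its 312 bp (32.4%) aligned to the ph-d window with 89.3% identity, in 2 stretches. Both stretches are shown in both genes because they set nearly the same sequence side by side at a strong and at a weak place. The capitals mark bases that differ between the copies, inserted bases included.
ph-p copy of the first stretch, chrX:2137207-2137264, minus strand: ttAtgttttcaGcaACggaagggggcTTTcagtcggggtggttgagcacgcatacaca
ph-d copy of the first stretch, chrX:2123640-2123696, minus strand: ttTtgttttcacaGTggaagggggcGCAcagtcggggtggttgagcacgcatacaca
ph-p copy of the second stretch, chrX:2137473-2137515, minus strand: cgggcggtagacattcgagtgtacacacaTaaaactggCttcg
ph-d copy of the second stretch, chrX:2123712-2123756, minus strand: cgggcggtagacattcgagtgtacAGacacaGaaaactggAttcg
The first stretch had 51 identical bases in 58 alignment columns and the second 41 in 45. The centres of the ph-p copies lay 104 and 155 bp from the summit of rank 10. The nearest pooled summit to the centre of the first ph-d copy was 291 bp away and ranked 28791, close to the end of the list, and the nearest to the second was 297 bp away and ranked 1369. The GCGTG match of the strongest region, read here as its reverse complement cacgc, lay in the first stretch and was present in both copies. Searched against the ph-d window, the other 2 IDR regions of ph-p gave no alignment. In the reverse search, 187 bp (47.2%) of the strongest ph-d region, that of rank 1369, aligned with 71.4% identity to X:2137654-2137855 in ph-p. That stretch lies between the ph-p regions of rank 10 and rank 135 and overlaps the edge of the region of rank 135.

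Pc (FBgn0003042, 3L:21306138-21318020, minus strand) encodes Polycomb, whose chromodomain reads the histone mark laid by complex 2. It had 3 pooled regions, and 2 were IDR regions. The stronger, at 3L:21304438-21304704, lay beyond the 3′ end of Pc, 1534 bp outside the body and 54 bp downstream of the start site of CG11309, in an intron of that gene. It had ratios of 11.0 in replicate 1 (rank 38) and 15.0 in replicate 2 (rank 29), with a mean of 13.0 ± 2.84 (SD, n = 2), and ranked 30 in the pooled list. It counts for Pc by the window alone, and with the gene body as the window neither IDR region would count for Pc.

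The second Pc region lay at the gene's own start, 39 bp upstream of it, at 3L:21317861-21318256. It had ratios of 3.15 in replicate 1 (rank 603) and 2.37 in replicate 2 (rank 1595), with a mean of 2.76 ± 0.550 (SD, n = 2), and was the weakest of the 6 IDR regions, with pooled rank 827 and a ratio of 3.42. Its upstream part is shown because this was the IDR region nearest to the start site of a listed gene, and the capitals mark the same words as for ph-p.
Pc region of rank 827, chr3L:21318021-21318109, minus strand: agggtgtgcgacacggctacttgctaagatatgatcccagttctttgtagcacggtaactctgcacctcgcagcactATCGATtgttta
ATCGAT lay within 50 bp of 4.64% of all IDR summits and of this 1 of the 6. The word GGGTG (bound by Sp and KLF type factors), found at 6.13% of all IDR summits, also occurred at this summit. The third pooled region, in the 5' UTR of Rab26, ranked 12768.

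Psc and Su(z)2 are neighbours on 2R that encode related RING-finger proteins of complex 1. Psc (FBgn0005624, 2R:12965997-12980994, minus strand) had 1 IDR region among 10 pooled regions. It lay in an intron, at 2R:12975408-12975803, 5052 bp downstream of the start site at 12980658. Its ratio was 3.79 in replicate 1 (rank 378) and 3.90 in replicate 2 (rank 654), with a mean of 3.85 ± 0.0810 (SD, n = 2). This was the smallest SD of the ratio among the 5 matched IDR regions, and both summits lay 1 bp from the pooled one. By rank the replicates were not closest at Psc: the Pc region of pooled rank 30 ranked 38 in replicate 1 and 29 in replicate 2. The pooled region farthest out, of rank 24432, lay 1887 bp beyond the 3′ end, with the start of CG13321 as the nearest. At the start sites of Psc only a weak region was matched in both replicates, 7 bp from the start site at 12980658, with ratios of 1.25 in replicate 1 and 1.14 in replicate 2.

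Su(z)2 (FBgn0265623, 2R:12996501-13007911, plus strand) had 7 pooled regions, and none was matched in both replicates. The strongest ranked 9886 with a ratio of 1.17 and lay 94 bp upstream of the start site at 12996501. One of rank 18336 lay 31 bp downstream of the start site at 12997123, with a ratio of 1.31 in replicate 1, and one in the 3' UTR had a ratio of 1.57 in replicate 2. A region of rank 15513 lay nearest to the start of CG33798. In the replicate 1 list and in the replicate 2 list the strongest Su(z)2 region was thus a different one.

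The strongest region had a pooled signal of 98.8 at Psc and 25.1 at Su(z)2, a log2 ratio of 1.98. The signals were 55.3 at Psc and 19.1 at Su(z)2 in replicate 1 (log2 ratio 1.53), and 41.8 at Psc and 16.9 at Su(z)2 in replicate 2 (1.31), with a mean log2 ratio of 1.42 ± 0.16 (SD, n = 2). The pooled log2 ratio lay above that of either replicate. The Su(z)2 value came from a different region in each list, so this SD is not the spread of a single Su(z)2 region. Psc was thus above Su(z)2 in both replicates. Summed over pooled regions, the signal was 274 at Psc, over 3960 bp of regions, and 138 at Su(z)2, over 2772 bp, with a mean per region of 27.4 at Psc and 19.7 at Su(z)2. The lengths are again summed widths, with overlapping regions at the Psc start sites each counted in full. Sequence likeness was slight here: 205 bp (1.37%) of the Psc body aligned to the Su(z)2 body.

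The interval of 15506 bp between Psc and Su(z)2 held a stronger region than either gene. It was an IDR region at 2R:12984980-12985375, of rank 183, with its summit 189 bp upstream of the non-coding gene lncRNA:CR44339. Its ratio was 4.71 in replicate 1 (rank 220) and 6.34 in replicate 2 (rank 229). It lay 4184 bp outside the Psc body and 11323 bp outside the Su(z)2 body, so it belongs to neither gene by the 2000 bp rule.

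**Figure D3:**
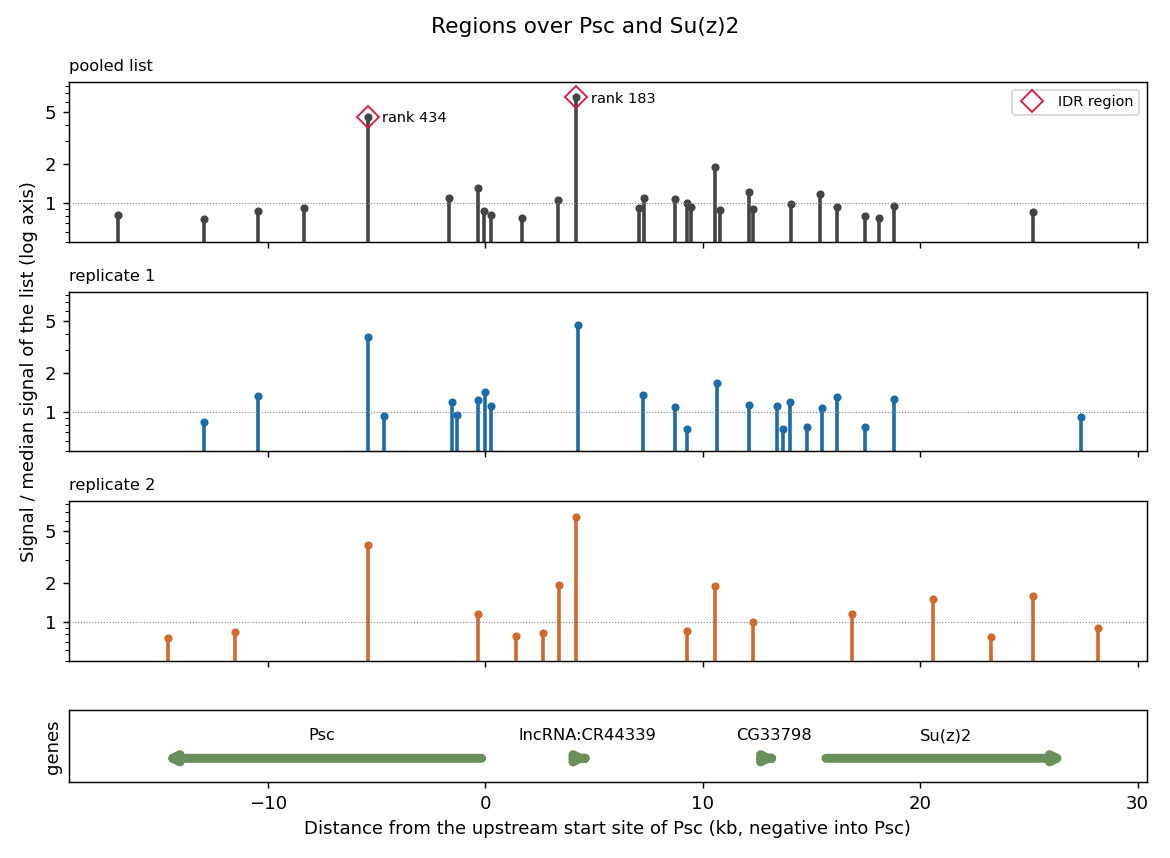
Regions over Psc and Su(z)2 in the pooled list and in each replicate, by distance of the summit from the upstream start site of Psc (kb, negative into Psc), with height as the ratio to the list median (log axis). The intronic Psc region of rank 434 and the region of rank 183 between the genes stand above the others in all 3 lists, and the regions over Su(z)2 stay near the list median.

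Sce, the RING ubiquitin ligase of complex 1, and Scm, a SAM domain partner of Polyhomeotic, had no IDR region. At Sce (FBgn0003330, 3R:27680431-27682029) the strongest of 4 pooled regions ranked 12604 with a ratio of 1.07 and lay in the 3' UTR of CG12883. A region 149 bp upstream of the Sce start was matched in both replicates with ratios of 0.854 in replicate 1 and 0.876 in replicate 2, both under the list median. At Scm (FBgn0003334, 3R:9633359-9637611) the strongest of 5 pooled regions ranked 5798 and lay in an intron of SpdS, with a ratio of 1.66 in replicate 1 and no match in replicate 2. A further Scm region, of rank 25430, lay 24 bp downstream of the start of Dh44. An IDR region of rank 1070 lay 2694 bp outside Scm, within Calr, and is the nearest to any of the 7 genes without one inside the window.

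The 3 listed genes of complex 2, E(z), Su(z)12 and esc, had no IDR region either. Su(z)12 (FBgn0020887, 3L:19918242-19923462) had 1 pooled region, in its own 5' UTR at 3L:19923156-19923551 and 108 bp downstream of the start. It ranked 1903, with ratios of 1.06 in replicate 1 (rank 12862) and 3.21 in replicate 2 (rank 948), so it was strong in replicate 2 and ordinary in replicate 1. At E(z) (FBgn0000629, 3L:10634575-10638130), the methyltransferase, the stronger of 2 pooled regions ranked 11528 and lay in an intron of Cnep1r2, and the replicate 2 list held no region in the window. At esc (FBgn0000588, 2L:11827204-11829405) the strongest of 3 pooled regions ranked 15920 and lay 47 bp upstream of the start. It had a ratio of 1.70 in replicate 2 and no match in replicate 1. All 3 summits lay outside the esc body and within Pde1c, 2 in its introns, this one included, and that of rank 16891 in its coding sequence. The other intronic one, of rank 22889, lay 1940 bp outside esc, just inside the window.

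In the order of their strongest pooled region the genes ran ph-p (rank 10), Pc (30), Psc (434), ph-d (1369), Su(z)12 (1903), Scm (5798), Su(z)2 (9886), E(z) (11528), Sce (12604) and esc (15920). The median over all protein-coding genes with a region was rank 6064, so 6 of the 10 stood before it. ph-p, Pc and Psc held the first 3 places in both replicates, followed by ph-d (rank 973) in replicate 1 and by Su(z)12 (rank 948) in replicate 2. The place of Pc rests in every list on the region at the start of CG11309, 1534 bp outside the Pc body in the pooled list. The region at the start of Pc itself ranked 827 in the pooled list, 603 in replicate 1 and 1595 in replicate 2. By that region Pc would stand behind Psc in every list, and in replicate 2 also behind Su(z)12 and ph-d (rank 1558). For Su(z)12 the replicates placed it on opposite sides of the median of all genes, which was rank 6008 in replicate 1 and 6466 in replicate 2. The same held for Su(z)2 and esc, which ranked 7202 and 11749 in replicate 1 and 4003 and 3256 in replicate 2, and for Scm, which ranked 3466 in replicate 1 and 10575 in replicate 2.

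Over the 50 pooled regions at the 10 genes, 11 were matched within 100 bp in both replicates, 18 in replicate 1 only, 6 in replicate 2 only and 15 in neither. Of all pooled regions, 23.1% were matched in both. The replicate 1 list held 49 distinct regions at these genes and the replicate 2 list 34. Over all protein-coding genes the median was also higher in replicate 1, with 2.96 regions per 10 kb of window against 2.52 in replicate 2. Of the 6 IDR regions, 4 had a start site of some gene within 500 bp of the summit, beside 54.5% of all IDR regions, and 20 of the 50 pooled regions did, beside 28.1% of all pooled regions. The regions at the listed genes were selected by a window around gene bodies and the full lists were not, so these shares are not from like sets. By the annotation, 17 of the 50 summits lay in introns, 12 between genes, 9 in a 5' UTR, 7 in coding sequence and 5 in a 3' UTR. These classes were not counted over all pooled regions, so whether such counts are usual for that list is not known.

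**Figure D4:**
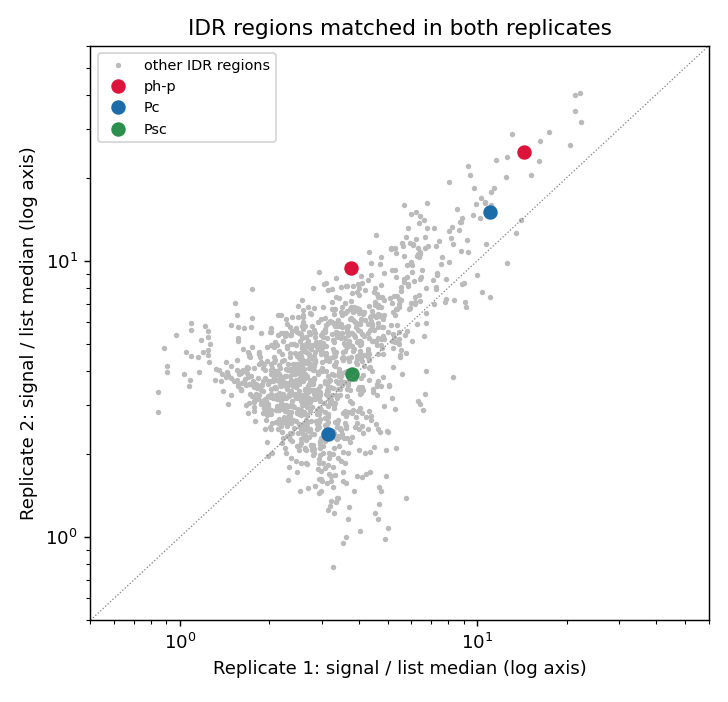
Ratio to the list median in replicate 1 (horizontal, log axis) and replicate 2 (vertical, log axis) for IDR regions matched within 100 bp in both replicates, with the 5 regions at ph-p, Pc and Psc in colour and equal ratios on the dotted line. The ph-p region of 14.4 in replicate 1 and 24.7 in replicate 2 lies among the strongest. The median ratio was 3.0 in replicate 1 and 3.98 in replicate 2, each over all IDR regions matched in that replicate.

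Of the other IDR regions, those next in rank to the strongest ph-p region were the region of rank 9 near Lk6, a kinase gene, and that of rank 11 near PNPase, with summits 980 bp upstream and 75 bp downstream of the nearest start site. ph-p was 1 of 60 genes (0.430% of protein-coding genes) with 3 or more IDR regions. The most were 7, at CHES-1-like (27048 bp) and Raf (48405 bp), followed by 6 each at kirre, sbb and ush, which are longer than ph-p in every case.

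Other genes of the Polycomb and trithorax systems were taken from 3 lists with 37 genes in all, to be read beside the 13.0% of all protein-coding genes with an IDR region and the 25.9% of those of 10000 bp or more. Of 16 further Polycomb group and Pho complex genes, 5 had an IDR region (31.2%): Caf1-55, phol, Kdm2, Pcl and caly, in rank order. Of these only Kdm2, whose product is a histone demethylase, had it in its own body and nearest to its own start, at rank 297 with ratios of 4.32 in replicate 1 and 4.61 in replicate 2. The region counted for Caf1-55, of rank 6, lay 128 bp upstream of mRpS10, and that for phol, of rank 42, lay 107 bp upstream of CG3552. Those for Pcl and caly lay nearest to pAbp and CG42837.

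Of 8 genes for proteins that act at Polycomb response elements, 4 had an IDR region. Trl, which encodes GAGA factor, had 2, and the stronger ranked 36, with ratios of 10.7 in replicate 1 and 11.5 in replicate 2. It was intronic and in the Trl body, but the nearest start site was that of CG42507, 1522 bp away. Dsp1 also had 2, the stronger at rank 91 and nearest to CG9921, while psq and grh had theirs at ranks 1112 and 613. Of 13 trithorax group genes, whose products counteract Polycomb silencing, 8 had an IDR region (61.5%). The best ranks were 2 for ash1, whose region lay 95 bp upstream of CG14100, and 25 for osa, in an intron of osa itself, with ratios of 10.6 in replicate 1 and 16.2 in replicate 2. The others were trx (266), brm (375, at its own start), kis (584), mor (734, nearest to Hel89B), fs(1)h (830) and Utx (1114, at its own start). Over all 37 genes, the best IDR region was nearest to the gene's own start in 9 of 17 cases, and 9 of the 13 genes of 10000 bp or more had one.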

How the data were processed

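Sima ChIP-seq lists from 2 biological replicates (per the labels) were used on dm6. Each relaxed list was derived with a control file, per the accompanying text files. The deposited signal of each region is the peak caller's value; no source used here gives its scale, the caller, the IDR threshold or the depth. The deposited p column held no p-values, and the q column was not used. The dm3 lists were not used, since no annotation of that build was given.

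Summits were assigned to Ensembl 115 gene models (BDGP 6.54), with windows of 2000 bp outside the gene body. Start sites were those of all annotated transcripts, and near meant within 500 bp. Replicate summits were matched to pooled summits within 100 bp. For the comparisons of neighbours, a region in both windows was given to the nearer gene. Likeness was computed with BLAST 2.17.0 (e-value 1e-5), repeats as words of 30 bases on either strand of the Release 6 genome. The work used Python 3.11.15, numpy 2.4.6, pandas 2.3.3 and matplotlib 3.10.9, and the assignment, distance and matching steps were tested on simulated data.

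Named genes were the members, listed pathway genes with an IDR region, genes nearest to regions at members, the genes with most IDR regions and those next in rank to the best region. The members, lists and words were chosen with earlier results of these data known; caly was looked up as the newer symbol of calypso. Other windows, matching distances, start-site distances, the sum of signals and each replicate alone were tried.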

Additional observations from a re-analysis of the deposited data

How the results depend on the processing

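The number of the 10 genes with an IDR region, 3 as reported, ran from 2 with the gene body alone to 4 with 5000 bp outside it, and was 4 with the top 1272 regions of either replicate alone. The additional gene was ph-d in replicate 1 and Su(z)12 in replicate 2. With each replicate alone the count of regions was 6 to 8 and that near a start site 4. With the gene body alone, pooled regions fell to 26, those matched in both replicates to 6 and IDR regions near a start site to 2. Matched regions numbered 19 with 5000 bp outside the body and 17 with summits up to 200 bp apart. With start sites within 200 bp, IDR regions near a start site numbered 2. The log2 ratio of ph-p over ph-d ran from 2.42 (sum of signals) to 3.36 (replicate 2 alone). For Psc over Su(z)2, 1.98 as reported, it was 1.00 with the sum of signals and 1.31 to 1.53 with 1 replicate alone. No direction was reversed in these alternatives. The causes were not tested. No paired analysis was possible because there was 1 group only. With 2 replicates the SD rests on 2 values, and the unknown depth limits what can be said of regions near the list median.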
